A study of Mus musculus with 5 samples.

Results

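The genes of pyruvate entry and of the tricarboxylic acid (TCA) cycle were followed in a profile of H3K23 propionylation (H3K23Pr), a propionyl group on lysine 23 of histone H3, in mouse heart. The list holds 32 genes, chosen by name for their place in the pathway and not by their signal. Earlier results of these data were known when the list was chosen. A region was taken for a gene where the authors' gene list for that region named it. All 32 genes had at least 1 region, with 65 regions in all, out of 18161 genes and 30965 regions in the deposited table. For each gene 2 regions were kept, the one with the highest mean signal over the 4 libraries and the one nearest to the gene's start. They were the same region for 26 genes.

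Pyruvate made from glucose or lactate enters mitochondria through the pyruvate carrier, and the pyruvate dehydrogenase complex turns it into acetyl-CoA. Kinases switch this complex off by phosphorylation, and phosphatases switch it on again. Acetyl-CoA is then oxidised in the TCA cycle, which in the heart supplies the respiratory chain with most of its electrons. Malate dehydrogenases and aspartate aminotransferases also form the malate-aspartate shuttle, which carries the reducing equivalents of cytosolic NADH into mitochondria. Isoleucine and valine are broken down to propionyl-CoA, the donor of the propionyl group, and propionyl-CoA carbons join the cycle as succinyl-CoA.

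The mice were male C57Bl/6J, 12 weeks old by the labels, and were given a diet without branched-chain amino acids (BCAA), which are valine, leucine and isoleucine, or a control diet that contains them. Each diet began 4 days before surgery and went on until the hearts were taken 2 weeks later. The surgery was transverse aortic constriction (TAC), a narrowing of the aorta that puts the left ventricle under pressure overload, or a sham operation. The 4 libraries were BCAA-free TAC, BCAA-free sham, control diet TAC and control diet sham, each 1 library from a pool of 3 hearts. The groups follow the sample titles, and the treatment field of 3 of these samples differs from the title. With 1 library a group there is no replicate check, so every ratio compares 2 libraries, and no p-value was computed. The intervals printed are exact 95% intervals from approximate tag numbers (Clopper-Pearson) and cover counting error only. The variation between pools of hearts was not measured.

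Approximate tags summed over all regions came to 17098000, 16960000, 18877000 and 16941000, in the BCAA-free TAC, BCAA-free sham, control diet TAC and control diet sham libraries. Of the markers of heart muscle, 15 of 15 had a region, while Myh1, Myh2 and Myh4, myosins of skeletal muscle, and Alb and Serpina1a, genes of the liver, had none. Tnnt3 and Mylpf, also of skeletal muscle, and Apoa1 and Ttr, also of the liver, each had one. No region of the deposited table was at signal 0 in any library, so no marker with a region could be. The summed signal of the 15 cardiomyocyte markers was 275.0 in the BCAA-free TAC library, 195.8 in BCAA-free sham, 224.3 in control diet TAC and 192.3 in control diet sham. That of the 12 fibroblast markers was 131.7, 207.3, 155.2 and 156.0 in the same order, and that of the 11 endothelial markers 230.3, 182.6, 270.6 and 228.5. The 8 smooth muscle markers summed to 90.41, 96.21, 113.9 and 100.6. The 8 macrophage markers with a region, of 9, lie in 6 regions, which summed to 82.3, 100.1, 117.4 and 101.6. The hearts hold many cell types, so fewer cells of a type and less mark per cell cannot be told apart.

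Mpc1, Mdh1, Pdk3, Got2, Pdk1 and Aco1 carry the results that follow, and the promoter inside the nearest region of each is shown. Mpc1 had the highest signal of the list, Mdh1 and Got2 were among the highest TAC ratios on the BCAA-free diet, Pdk3 had the highest on the control diet, Pdk1 had the highest TAC ratio of the pyruvate dehydrogenase kinases on the BCAA-free diet, and Aco1 was among the lowest in the diet comparison after TAC. The sequences run 5′ to 3′ on the gene's strand, from 250 bases before to 50 after the RefSeq start (GRCm38.p6), with the letters of a searched motif, on either strand, in capitals (CCGCCC is GGGCGG read on the other strand).
Mdh1 (chr11:21571885-21572184, minus strand): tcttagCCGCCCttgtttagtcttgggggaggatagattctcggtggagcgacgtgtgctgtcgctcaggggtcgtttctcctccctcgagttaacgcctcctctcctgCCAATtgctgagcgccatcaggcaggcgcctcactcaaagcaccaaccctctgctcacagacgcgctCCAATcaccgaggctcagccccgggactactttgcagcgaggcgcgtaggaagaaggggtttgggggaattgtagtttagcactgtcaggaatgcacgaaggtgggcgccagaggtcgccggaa
Got2 (chr8:95888352-95888651, minus strand): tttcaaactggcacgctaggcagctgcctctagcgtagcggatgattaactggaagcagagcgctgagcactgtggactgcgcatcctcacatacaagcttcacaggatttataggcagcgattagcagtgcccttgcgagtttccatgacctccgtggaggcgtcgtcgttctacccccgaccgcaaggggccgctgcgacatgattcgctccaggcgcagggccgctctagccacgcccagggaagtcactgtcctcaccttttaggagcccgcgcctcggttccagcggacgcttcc
Pdk1 (chr2:71872974-71873273, plus strand): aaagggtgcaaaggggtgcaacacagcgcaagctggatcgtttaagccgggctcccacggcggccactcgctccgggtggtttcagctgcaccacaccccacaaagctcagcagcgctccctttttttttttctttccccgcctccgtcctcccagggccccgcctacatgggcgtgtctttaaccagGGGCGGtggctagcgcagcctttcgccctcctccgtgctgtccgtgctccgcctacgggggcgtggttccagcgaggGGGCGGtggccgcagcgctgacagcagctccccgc
Pdk3 (chrX:93832101-93832400, minus strand): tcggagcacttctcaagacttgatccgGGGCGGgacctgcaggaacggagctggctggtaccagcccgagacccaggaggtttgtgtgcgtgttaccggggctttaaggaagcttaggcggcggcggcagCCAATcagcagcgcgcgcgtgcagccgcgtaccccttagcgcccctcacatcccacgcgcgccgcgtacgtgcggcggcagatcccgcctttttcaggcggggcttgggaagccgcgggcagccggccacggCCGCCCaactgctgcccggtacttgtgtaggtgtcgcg
Aco1 (chr4:40143015-40143314, plus strand): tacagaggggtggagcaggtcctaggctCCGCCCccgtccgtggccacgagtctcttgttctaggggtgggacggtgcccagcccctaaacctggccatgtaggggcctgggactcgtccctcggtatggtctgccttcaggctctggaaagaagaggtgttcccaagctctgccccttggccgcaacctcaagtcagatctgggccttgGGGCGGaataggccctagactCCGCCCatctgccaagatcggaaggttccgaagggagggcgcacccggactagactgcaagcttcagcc
Mpc1 (chr17:8283537-8283836, plus strand): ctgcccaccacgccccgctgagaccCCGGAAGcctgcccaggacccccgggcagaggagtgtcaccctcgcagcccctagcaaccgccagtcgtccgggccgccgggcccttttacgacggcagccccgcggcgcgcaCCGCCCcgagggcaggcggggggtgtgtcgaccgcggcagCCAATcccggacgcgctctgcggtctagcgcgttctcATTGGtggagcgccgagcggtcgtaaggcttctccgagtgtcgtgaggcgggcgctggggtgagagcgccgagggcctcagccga

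The motifs searched, on both strands, were GGGCGG (GC box), CCAAT (NF-Y), CCGGAAG (ETS family), CACGTG (E-box), AAGGTCA (the site of estrogen-related receptors), GCGCATGCG (NRF1) and AAGATGGCG (YY1). No motif is contained in another and no base of the printed promoters lies in more than 1 match. RefSeq promoter windows were found for 29 of the 32 genes, 40 windows in all. GGGCGG was in 65.0% of these windows and in 35.6% of the 32817 windows of all genes. CCAAT was in 60.0% and 37.4%, CACGTG in 15.0% and 7.15%, CCGGAAG in 10.0% and 8.86%, and AAGGTCA in 5.0% and 4.72%. GCGCATGCG was in 5.0% and 1.75%, and AAGATGGCG in 2.5% and 1.4%. Windows of 1 gene can overlap and count a match more than once: Ogdh has 6 windows, both GCGCATGCG windows are overlapping windows of Ogdh, and 3 of the 6 CACGTG windows are Ogdh windows. By gene, GCGCATGCG was in 1 of 29 genes and CACGTG in 4 of 29. Among windows whose start lies in a region with a promoter and a CpG island, the shares for these genes and for all genes were 67.6% and 65.6% for GGGCGG, 59.5% and 35.7% for CCAAT, 16.2% and 10.0% for CACGTG, and 10.8% and 17.0% for CCGGAAG. On the same basis they were 5.41% and 2.96% for AAGGTCA, 5.41% and 3.54% for GCGCATGCG, and 2.7% and 2.82% for AAGATGGCG. CCGGAAG and AAGATGGCG were thus above the share of all windows and below that of the CpG-island promoter windows. They were in only 4 and 1 windows of these genes, too few to place either motif. The median GC content of these windows was 61.9%, against 52.7% for all windows. A match describes letters and no binding was measured.

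The region nearest to the start was a marked CpG-island promoter region for every gene of the list. All 32 nearest regions contained both a promoter and a CpG island and were called in all 4 libraries, as were 65.8% of the nearest regions of all genes. Of the 32, 29 held a RefSeq start of the gene. For Pdp1, Idh3a and Me2 none was found there, so the promoter counted in the region was not matched to the gene. Their median mean signal was 16.7, against 14.1 for the nearest regions of all genes and 15.8 for those with a CpG-island promoter. Signal is the authors' average coverage per region, on a scale that no header defines. Mpc1, which with Mpc2 forms the carrier, had the highest mean signal (29.2) and lay at the 96.7th percentile of genes. Idh3b (22.6), Ogdh (21.8), Got1 (21.2) and Idh3a (20.5) followed, and Suclg2 (11.4), Me3 and Pdk3 (10.7) were lowest. These signals rest on 79.8 to 12280 tags per library and region, with a median of 549. Mpc1 lay well above Idh3b, the next in this order, while Suclg2, Me3 and Pdk3 were within 1 unit of signal. The BCAA-free TAC library was highest at 10 of the 32 nearest regions (9.74% over all genes), BCAA-free sham at 1 (11.6%) and control diet TAC at 21 (72.8%). BCAA-free TAC was lowest at 3 (43.1% over all genes), BCAA-free sham at 13 (28.4%), control diet TAC at 1 (3.66%) and control diet sham at 15 (24.8%).

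**Figure D1:**
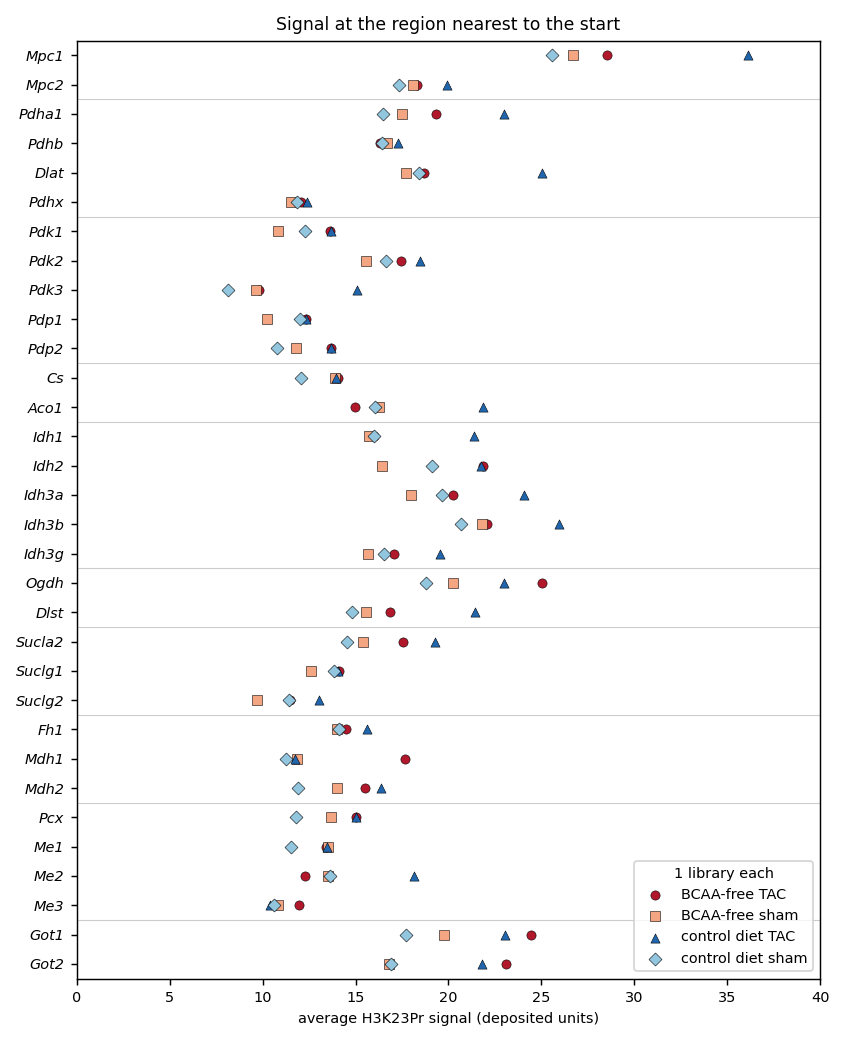
Average H3K23Pr signal at the region nearest to the start of each of the 32 genes, 1 point for each of the 4 libraries. Mpc1 stands above the rest, at 28.5 in BCAA-free TAC, 26.7 in BCAA-free sham, 36.1 in control diet TAC and 25.6 in control diet sham.

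By average signal, these genes were a little higher in TAC than in sham hearts on both diets, and by peak signal on the control diet alone. On the BCAA-free diet the median log2 ratio of TAC to sham over the highest regions was 0.13, with 26 genes above 0 and 6 below. Over all 18161 genes it was -0.04, with 7631 above and 10518 below. By peak signal, the highest point of a region, 15 genes lay above 0 and 17 below on that diet. The median was -0.029, against -0.18 over all genes, of which 4613 lay above 0 and 13071 below. On the control diet the median by average signal was 0.26, with 30 above and 2 below. Over all genes it was 0.27, with 15987 above and 2165 below. By peak signal the median there was 0.39, with 31 above and 1 below, and 0.38 over all genes, with 16442 above and 1446 below. No gene of the list was 1.5-fold higher or lower on the BCAA-free diet, where 3.79% of all genes were that much higher and 4.88% lower. On the control diet 1 was higher (Pdk3) and 0 lower, with 5.86% and 0.694% of all genes. A smaller step, at least 25% higher or 20% lower, was reached by 5 and 2 genes on the BCAA-free diet (10.5% and 14.3% of all genes), and by 13 and 0 on the control diet (39.8% and 2.27%). At the regions nearest to the start, 4 and 0 genes reached it on the BCAA-free diet (10.7% and 15%), and 15 and 0 on the control diet (39.2% and 2.81%). The share of higher genes on the control diet is close to that of all genes.

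Between diets the sham hearts differed little at these genes. The median log2 ratio of BCAA-free to control diet in sham hearts was 0.02, with 17 genes above 0 and 15 below. Over all genes it was 0.01, with 9495 above and 8650 below. At the 1.5-fold threshold 0 genes differed (1.21% of all genes higher, 1.42% lower), and 0 reached the smaller step (7.14% and 6.55%). In TAC hearts the median was -0.10, with 8 above and 24 below, against -0.31 over all genes (2345 above and 15812 below). Mdh1 was the 1 gene at least 1.5-fold higher (1.11% of all genes) and Pdk3 the 1 gene at least 1.5-fold lower (11.7%). At the smaller step 1 gene was higher (3.35%) and 8 were lower, against 48.4% of all genes, and at the nearest regions 1 was higher (3.42%) and 7 lower (48.4%). The comparisons share libraries, so a library that is high at a gene moves 2 of its ratios.

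The zero of these ratios depends on the scaling of the libraries. Relative to the median of CpG-island promoter regions, which lay at -0.05, 0.29, 0.01 and -0.33 for the TAC ratio on the BCAA-free diet, the TAC ratio on the control diet, the diet ratio in sham hearts and the diet ratio in TAC hearts, 27, 15, 17 and 24 genes of the list lay above 0. On that basis the diet ratio in TAC hearts had a median of 0.23, and the TAC ratio on the control diet -0.029. The cardiomyocyte markers were higher in TAC hearts on the BCAA-free diet for 15 of 15 genes (median 0.59) and the fibroblast markers lower for 12 of 12 (median -0.71). Of all 18161 genes, 7631 were higher in that comparison and 10518 lower. There the endothelial markers had a median of 0.40, the smooth muscle markers -0.14 and the macrophage markers -0.50. On the control diet the medians were 0.22 for the cardiomyocyte, -0.06 for the fibroblast, 0.23 for the endothelial, 0.03 for the smooth muscle and 0.14 for the macrophage markers. In sham hearts the fibroblast markers were higher on the BCAA-free diet for 12 of 12 genes (median 0.40), as were 9495 of all 18161 genes. The endothelial markers had a median of -0.38 there, with 0.03 for the cardiomyocyte, -0.13 for the smooth muscle and -0.03 for the macrophage markers. In TAC hearts the diet ratio had a median of 0.34 for the cardiomyocyte, -0.22 for the fibroblast and -0.19 for the endothelial markers. It was below 0 for 8 of 8 smooth muscle (median -0.25) and 8 of 8 macrophage markers (median -0.55). Over all genes it was below 0 for 15812 of 18161, with a median of -0.31. The 8 macrophage markers share 6 regions, so some regions count more than once. The marker lists, too, were chosen with earlier results of these data known. The part of these cell types in the results was not tested.

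**Figure D2:**
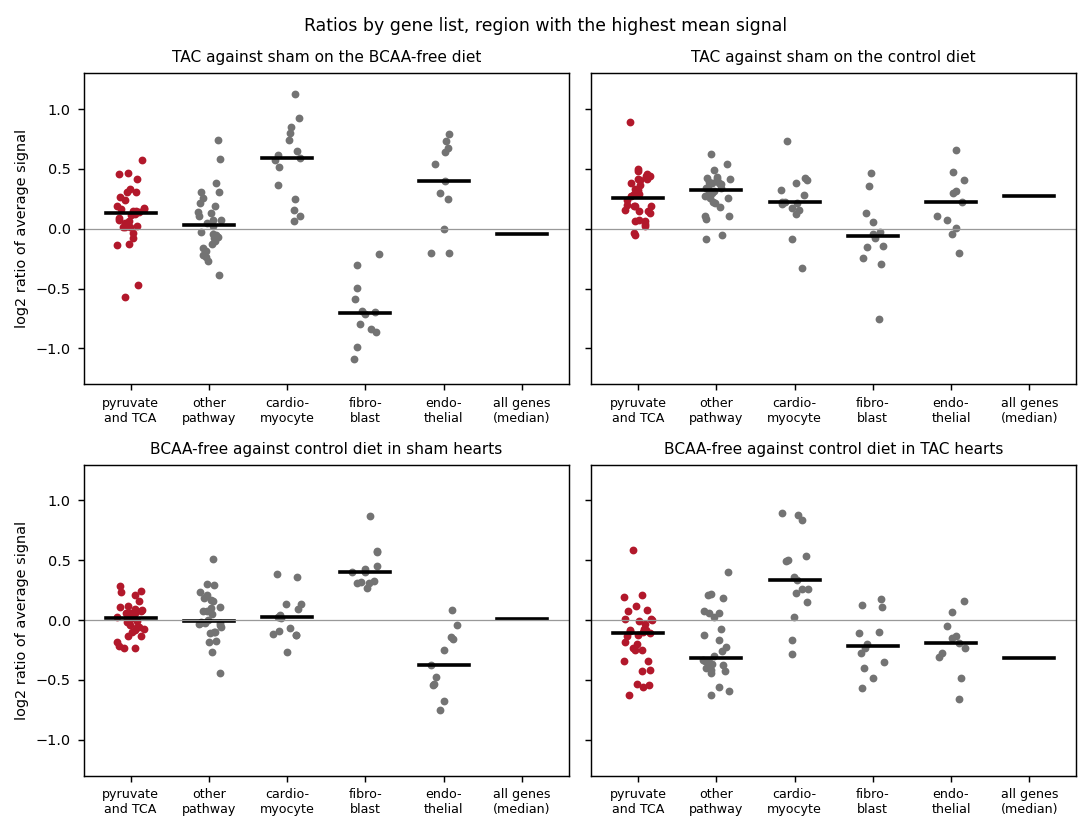
Log2 ratio of average signal (vertical axis) at the highest region of each gene, 1 panel for each of the 4 comparisons, with 1 point a gene and a bar at each list's median. In the panel for TAC on the BCAA-free diet the cardiomyocyte markers lie above 0 (median 0.59), the fibroblast markers below (median -0.71) and the 32 genes between them (median 0.13).

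The difference of the TAC ratio between diets, BCAA-free minus control, had a median of -0.11 over the 32 genes, with 12 above 0 and 20 below. Over all genes the median was -0.32, with 3056 above 0 and 15105 below. Among the 32 genes the difference ran between 0.51 (0.32 to 0.70) for Mdh1 and -0.87 (-1.44 to -0.30) for Pdk3. By peak signal the log2 TAC ratio of Mdh1 was 0.36 on the BCAA-free diet and 0.39 on the control diet, so its diet difference was not seen there. That of Pdk3 was 0.43 and 1.38.

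Mpc1 had a signal of 28.5 in BCAA-free TAC, 26.7 in BCAA-free sham, 36.1 in control diet TAC and 25.6 in control diet sham. The control diet TAC library was the highest, and the TAC ratio was 1.07 (0.983 to 1.16) on the BCAA-free diet and 1.41 (1.3 to 1.53) on the control diet. For Mpc2, the other subunit of the carrier, the TAC ratio was 1.01 (0.939 to 1.09) on the BCAA-free diet and 1.15 (1.07 to 1.24) on the control diet.

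Among the subunits of the pyruvate dehydrogenase complex the TAC ratio on the control diet was highest at Pdha1 and Dlat. Pdha1, the alpha subunit of the decarboxylase, had a signal of 19.3 in BCAA-free TAC, 17.5 in BCAA-free sham, 23 in control diet TAC and 16.4 in control diet sham. The TAC ratio was 1.1 (0.976 to 1.249) on the BCAA-free diet and 1.4 (1.24 to 1.57) on the control diet. Dlat, the acetyltransferase core, had a signal of 18.7 in BCAA-free TAC, 17.7 in BCAA-free sham, 25 in control diet TAC and 18.4 in control diet sham, with ratios of 1.05 (0.929 to 1.19) and 1.36 (1.21 to 1.53) on the BCAA-free and control diets. Pdhb, the beta subunit of the decarboxylase, and Pdhx, which anchors the dihydrolipoamide dehydrogenase, had ratios within 0.977 to 1.05 on the BCAA-free diet and 1.04 to 1.05 on the control diet. Their intervals all hold 1.

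Of the kinases and phosphatases of the complex, Pdk3 had the largest TAC ratio. Pdk3, a kinase that inhibits the complex, had a signal of 9.8 in BCAA-free TAC, 9.65 in BCAA-free sham, 15.1 in control diet TAC and 8.13 in control diet sham. The control diet TAC library stood alone, 1.86 (1.4 to 2.46) times the sham library on the control diet, against 1.02 (0.753 to 1.36) on the BCAA-free diet, and BCAA-free TAC was 0.649 (0.496 to 0.844) times control diet TAC. Its region spans 2199 bases and holds fewest tags of the list. Pdk1, another kinase, had a signal of 13.6 in BCAA-free TAC, 10.8 in BCAA-free sham, 13.7 in control diet TAC and 12.3 in control diet sham, 1.26 (1.15 to 1.38) times the sham value on the BCAA-free diet. Its sham library on the BCAA-free diet was the lowest of the 4, at 0.88 (0.803 to 0.964) of the control diet. The log2 TAC ratio of Pdk1 by peak signal was 0.29 on the BCAA-free diet and 0.62 on the control diet. By average signal it was 0.33 and 0.16, so the order of the diets depends on the measure. Pdk2 had a TAC ratio of 1.12 (1.02 to 1.23) on the BCAA-free diet and 1.11 (1.01 to 1.21) on the control diet. Pdp1, a phosphatase that removes the inhibiting phosphate, had a signal of 12.3 in BCAA-free TAC, 10.2 in BCAA-free sham, 12.3 in control diet TAC and 12 in control diet sham, with ratios of 1.2 (1.1 to 1.32) and 1.03 (0.938 to 1.12) on the same diets. Its BCAA-free sham library was the lowest, and its diet ratio in sham hearts was 0.852 (0.776 to 0.935). The log2 TAC ratio of Pdp1 by peak signal was -0.15 on the BCAA-free diet and 0.24 on the control diet. By average signal it was 0.27 and 0.036. Pdp2, the other phosphatase, had a promoter region with ratios of 1.16 (1.02 to 1.33) and 1.27 (1.11 to 1.45), and a region with a higher signal 17.43 kb downstream, listed also for Cdh16, which holds neither a promoter nor a CpG island and had a signal of 20.1 in BCAA-free TAC, 14.5 in BCAA-free sham, 17.6 in control diet TAC and 15.4 in control diet sham. There the TAC ratio was 1.38 (1.27 to 1.5) on the BCAA-free diet and 1.14 (1.05 to 1.24) on the control diet, and the BCAA-free TAC library was highest.

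Cs, citrate synthase, had nearly equal TAC signal on both diets at its start, with a TAC ratio of 1.01 (0.919 to 1.11) on the BCAA-free diet and 1.16 (1.05 to 1.28) on the control diet. The diet ratio in TAC hearts was 1.006 (0.914 to 1.1) there. At the highest region listed for Cs, 33.07 kb downstream and shared with Coq10a and Ankrd52, it was 0.934 (0.876 to 0.998). Aco1, the cytosolic aconitase that also acts as iron regulatory protein, had a signal of 14.9 in BCAA-free TAC, 16.3 in BCAA-free sham, 21.8 in control diet TAC and 16.1 in control diet sham. The control diet TAC library was the highest. The TAC ratio was 0.918 (0.813 to 1.04) on the BCAA-free diet, an interval that holds 1, and 1.36 (1.22 to 1.52) on the control diet, and BCAA-free TAC was 0.685 (0.61 to 0.767) times control diet TAC.

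Among the isocitrate dehydrogenases the TAC ratio on the BCAA-free diet was highest at Idh2. Idh2, the mitochondrial NADP-dependent enzyme, lies in a 125799-base region of chromosome 7 (80012400 to 80138199, mm10) shared with Zfp710, and the signal of the region was 21.9 in BCAA-free TAC, 16.4 in BCAA-free sham, 21.8 in control diet TAC and 19.1 in control diet sham. The region in TAC hearts was 1.33 (1.3 to 1.37) times the sham value on the BCAA-free diet and 1.14 (1.11 to 1.17) on the control diet. The breadth of the region means that this value is not of Idh2 alone. The log2 TAC ratio of the region by peak signal was 0.09 on the BCAA-free diet and 0.34 on the control diet. By average signal it was 0.41 and 0.19, so the order of the diets depends on the measure. Idh1, the cytosolic NADP-dependent enzyme, had a TAC ratio of 1.34 (1.16 to 1.54) on the control diet at its start. Its highest region lies inside the gene and holds a promoter, a CpG island and another RefSeq start of Idh1. The signal there was 17.7 in BCAA-free TAC, 18.6 in BCAA-free sham, 18.8 in control diet TAC and 19.5 in control diet sham. The ratio there was 0.966 (0.877 to 1.06), an interval that holds 1, so the higher value depends on the region taken. On the BCAA-free diet the ratios at the start and at that region were 1.02 (0.873 to 1.19) and 0.948 (0.857 to 1.05). The NAD-dependent subunits Idh3a, Idh3b and Idh3g had TAC ratios of 1.01 to 1.13 on the BCAA-free diet and 1.18 to 1.26 on the control diet.

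Ogdh, the decarboxylase of the oxoglutarate dehydrogenase complex, had a signal of 25 in BCAA-free TAC, 20.2 in BCAA-free sham, 23 in control diet TAC and 18.8 in control diet sham, with TAC ratios of 1.24 (1.14 to 1.35) and 1.22 (1.12 to 1.34) on the BCAA-free and control diets. Dlst, its succinyltransferase core, had at its start a signal of 16.8 in BCAA-free TAC, 15.6 in BCAA-free sham, 21.4 in control diet TAC and 14.8 in control diet sham. The ratios there were 1.08 (0.976 to 1.2) and 1.45 (1.31 to 1.6). The highest region listed for Dlst lies 63.37 kb away and is shared with Rps6kl1, Pgf and Eif2b2, and its signal was 15.4 in BCAA-free TAC, 22.9 in BCAA-free sham, 20.6 in control diet TAC and 18.8 in control diet sham. There the TAC ratio was 0.675 (0.651 to 0.7) on the BCAA-free diet and 1.1 (1.06 to 1.14) on the control diet, so the direction for Dlst on the BCAA-free diet depends on the region taken.

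The succinyl-CoA ligases stand where propionyl-CoA carbons enter the cycle. Sucla2, the ADP-forming beta subunit, had TAC ratios of 1.14 (0.983 to 1.33) on the BCAA-free diet and 1.32 (1.14 to 1.54) on the control diet. Suclg1, the alpha subunit of both forms, had a signal of 14.1 in BCAA-free TAC, 12.6 in BCAA-free sham, 14 in control diet TAC and 13.8 in control diet sham. The BCAA-free sham library was lowest and the other 3 were close together, with TAC ratios of 1.12 (0.99 to 1.26) and 1.01 (0.901 to 1.14). Suclg2, the GDP-forming beta subunit, had a signal of 11.5 in BCAA-free TAC, 9.72 in BCAA-free sham, 13 in control diet TAC and 11.4 in control diet sham, with TAC ratios of 1.18 (1.02 to 1.36) and 1.14 (0.998 to 1.31). Its sham signal on the BCAA-free diet was 0.852 (0.737 to 0.986) times that on the control diet.

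Mdh1, the cytosolic malate dehydrogenase of the shuttle, stood out on the BCAA-free diet by average signal, but not by peak signal. It had a signal of 17.6 in BCAA-free TAC, 11.9 in BCAA-free sham, 11.7 in control diet TAC and 11.2 in control diet sham, in a region of chromosome 11 (21558000 to 21573999) that holds the gene and Wdpcp. The BCAA-free TAC library was higher than the other 3, which lay within 1 unit of each other. The TAC ratio was 1.49 (1.36 to 1.62) on the BCAA-free diet and 1.04 (0.947 to 1.15) on the control diet, and the diet ratio in TAC hearts was 1.5 (1.38 to 1.64). By peak signal the log2 diet ratio in TAC hearts was 0.09, against 0.59 by average signal. The log2 TAC ratio by peak signal was 0.36 on the BCAA-free diet and 0.39 on the control diet. Mdh2, the mitochondrial form, had a signal of 15.5 in BCAA-free TAC, 14 in BCAA-free sham, 16.4 in control diet TAC and 11.9 in control diet sham, with TAC ratios of 1.11 (1.01 to 1.21) and 1.38 (1.249 to 1.51) on the BCAA-free and control diets and a diet ratio in sham hearts of 1.18 (1.07 to 1.3). Fh1, fumarase, had TAC ratios of 1.04 (0.889 to 1.21) and 1.11 (0.955 to 1.29). By average signal the 2 aspartate aminotransferases were higher after TAC on both diets. The median ratio over all genes was 0.97 on the BCAA-free diet and 1.21 on the control diet. Got2, the mitochondrial form, had a signal of 23.1 in BCAA-free TAC, 16.8 in BCAA-free sham, 21.8 in control diet TAC and 16.9 in control diet sham, with ratios of 1.37 (1.2 to 1.57) and 1.29 (1.13 to 1.48). Got1, the cytosolic form, had a signal of 24.5 in BCAA-free TAC, 19.7 in BCAA-free sham, 23 in control diet TAC and 17.7 in control diet sham, with ratios of 1.24 (1.17 to 1.31) and 1.3 (1.23 to 1.38). Their log2 TAC ratios by peak signal on the BCAA-free diet were small, 0.13 for Got2 and 0.045 for Got1. On the control diet these were 0.45 and 0.42.

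Among the enzymes that turn pyruvate or malate outside the main cycle, Pcx, pyruvate carboxylase, which makes oxaloacetate, had TAC ratios of 1.1 (0.945 to 1.28) on the BCAA-free diet and 1.28 (1.09 to 1.49) on the control diet at its start. Its diet ratio in TAC hearts was 1.001 (0.865 to 1.16) there. At its highest region, 115.8 kb downstream and also listed for Lrfn4 and Rce1, that ratio was 0.79 (0.691 to 0.901). Me2, the mitochondrial NAD-dependent malic enzyme, had a signal of 12.3 in BCAA-free TAC, 13.5 in BCAA-free sham, 18.2 in control diet TAC and 13.6 in control diet sham. The TAC ratio was 0.908 (0.785 to 1.05) on the BCAA-free diet and 1.33 (1.17 to 1.52) on the control diet, and BCAA-free TAC was 0.677 (0.59 to 0.775) times control diet TAC. Me1, the cytosolic NADP-dependent form, had ratios of 0.994 (0.865 to 1.14) and 1.17 (1.01 to 1.35) at its start. Its highest region lies 124.6 kb downstream, shared with Pgm3 and Rwdd2a, and had a signal of 12.4 in BCAA-free TAC, 17.2 in BCAA-free sham, 18 in control diet TAC and 14.8 in control diet sham, with ratios of 0.724 (0.625 to 0.837) and 1.21 (1.06 to 1.39). Me3, the mitochondrial NADP-dependent form, had a signal of 12 in BCAA-free TAC, 10.8 in BCAA-free sham, 10.4 in control diet TAC and 10.6 in control diet sham at its start, with ratios of 1.11 (0.996 to 1.23) and 0.977 (0.874 to 1.09). The log2 TAC ratio there by peak signal was -0.58 on the BCAA-free diet and 0.15 on the control diet. By average signal it was 0.15 and -0.034, with the opposite signs.

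**Figure D3:**
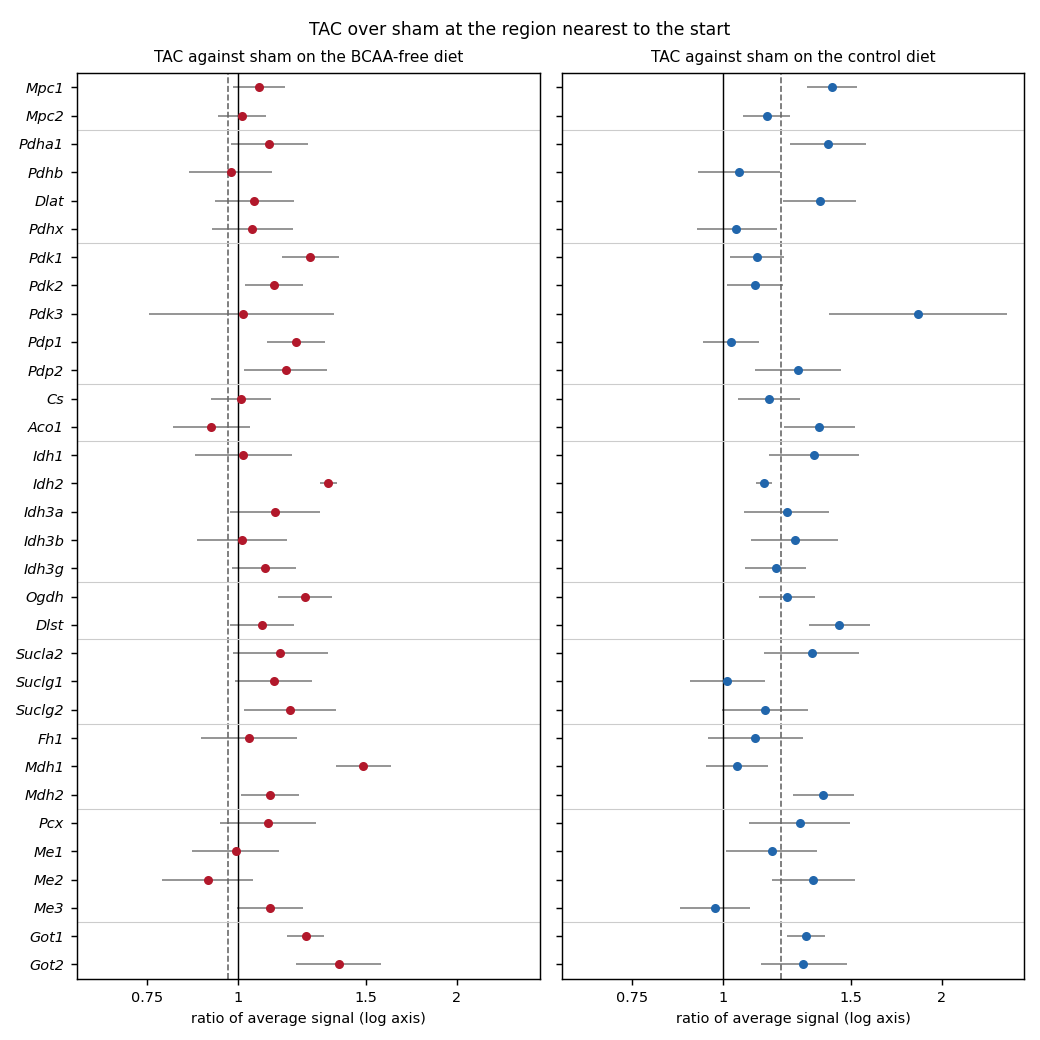
Ratio of TAC to sham signal (log axis) for each of the 32 genes at the region nearest to the start, on the BCAA-free diet (left) and the control diet (right), with 95% counting intervals as lines and the median over all genes as a dashed line. Mdh1 is highest on the BCAA-free diet (1.49-fold) and Pdk3 on the control diet (1.86-fold).

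**Figure D4:**
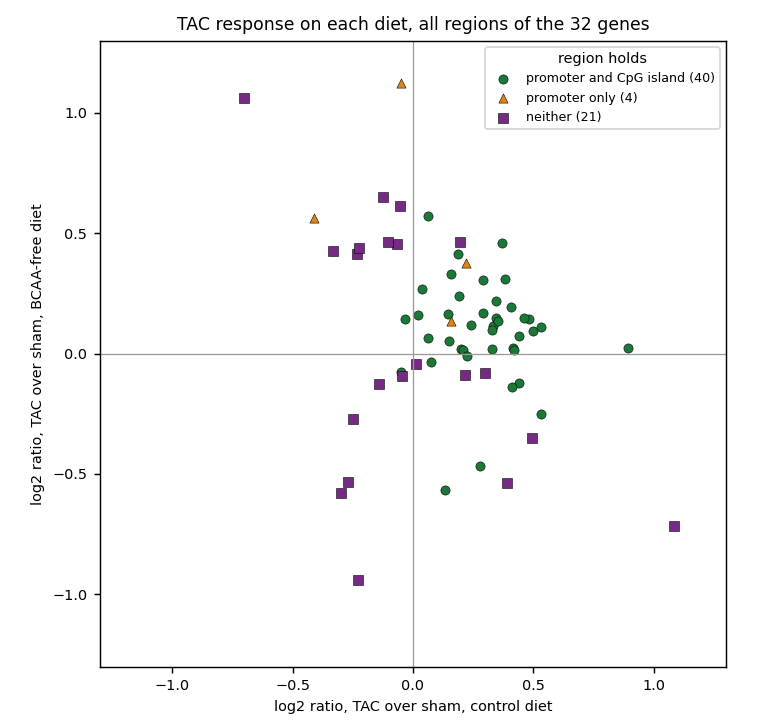
TAC ratio on the BCAA-free diet (vertical) against that on the control diet (horizontal), both log2, 1 point for each of the 65 regions, with a mark for each class of region. Of the 40 regions with a promoter and a CpG island, 31 lie above 0 on both diets (37.8% of all regions of that class), while of the 21 with neither 1 does (33.5%).

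Signs were mixed at the regions away from promoters. Of the 65 regions, 40 held a promoter and a CpG island, 4 a promoter only and 21 neither. Of the 40, 31 were higher after TAC on both diets (37.8% of all 9713 regions of that class), 7 lower on the BCAA-free diet and higher on the control diet (55.0%), 1 the other way (2.1%) and 1 lower on both (5.07%). Of the 21, 1 was higher on both (33.5% of all 16727 regions of that class), 8 higher on the BCAA-free diet and lower on the control diet (17.8%), 6 the other way (20.7%) and 6 lower on both (27.8%). At 1.5-fold, 3 of the 21 were higher and 2 lower on the BCAA-free diet (16.6% and 16.7% of all 16727 such regions), and 1 was higher and 1 lower on the control diet (8.75% and 5.64%).

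Me1 had 4 regions in its body, 25.91, 47.41, 66.92 and 76.61 kb from the start. The TAC ratio ran between 1.34 and 1.53 on the BCAA-free diet, with intervals in the order of distance of 1.07 to 1.7, 1.02 to 1.76, 1.23 to 1.55 and 1.12 to 2.07. On the control diet it ran between 0.794 and 0.962, with intervals of 0.666 to 1.09, 0.59 to 1.05, 0.82 to 1.05 and 0.687 to 1.34, all of which hold 1. The strongest of them, at 66.92 kb, had a signal of 16.4 in BCAA-free TAC, 11.9 in BCAA-free sham, 11 in control diet TAC and 11.8 in control diet sham, and BCAA-free TAC was 1.5 (1.34 to 1.69) times control diet TAC. At the Me1 start the TAC ratio on the BCAA-free diet was 0.994. By peak signal the log2 TAC ratio at 25.91 kb was -0.36 on the BCAA-free diet and 0.42 on the control diet, the reverse of the average signal. At 76.61 kb it was 0.21 on both diets, and that region was called in BCAA-free TAC alone. At 47.41 and 66.92 kb it was 0.20 and 0.49 on the BCAA-free diet, and -0.13 and -0.034 on the control diet.

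Me3 had 6 regions beyond its start. That at 12.18 kb had a signal of 10.3 in BCAA-free TAC, 4.95 in BCAA-free sham, 5.55 in control diet TAC and 9.03 in control diet sham, and the TAC ratio was 2.09 (1.44 to 3.07) on the BCAA-free diet and 0.615 (0.425 to 0.889) on the control diet. It was called only in BCAA-free TAC and control diet sham, where its signal was high. A region called only in its high libraries is listed through them, so its ratio follows in part from that. At 32.78, 42.48, 211.4 and 223.6 kb the ratio on the BCAA-free diet was 0.67 (0.587 to 0.766), 0.692 (0.541 to 0.878), 0.689 (0.627 to 0.758) and 0.522 (0.382 to 0.699). The region at 42.48 kb was called in BCAA-free sham alone, and that at 223.6 kb in every library but BCAA-free TAC. At 211.4 kb the ratio on the control diet was 1.31 (1.19 to 1.45), in the other direction, and the signal was 8.77 in BCAA-free TAC, 12.7 in BCAA-free sham, 11.3 in control diet TAC and 8.63 in control diet sham. Got2 had a region in its body at 10.47 kb with a signal of 9.81 in BCAA-free TAC, 6.25 in BCAA-free sham, 6.51 in control diet TAC and 7.1 in control diet sham, with TAC ratios of 1.57 (1.35 to 1.83) on the BCAA-free diet and 0.917 (0.78 to 1.08) on the control diet. A region 5.034 kb upstream of Got2 had a ratio of 2.18 (1.32 to 3.62) on the BCAA-free diet. Its signal was 10.2 in BCAA-free TAC, 4.66 in BCAA-free sham, 4.22 in control diet TAC and 4.37 in control diet sham, on few tags. That region was called in BCAA-free TAC alone. The Aco1 region at 31.13 kb, of 799 bases and also on few tags, had a signal of 4.12 in BCAA-free TAC, 6.76 in BCAA-free sham, 9.08 in control diet TAC and 4.28 in control diet sham, with TAC ratios of 0.609 (0.305 to 1.24) and 2.12 (1.12 to 4.24) on the BCAA-free and control diets. It was called in control diet TAC alone. The Pcx region at 105.0 kb, shared with Lrfn4 and Rce1, had a signal of 9.39 in BCAA-free TAC, 11.2 in BCAA-free sham, 15.2 in control diet TAC and 10.5 in control diet sham, with ratios of 0.839 (0.713 to 0.988) and 1.45 (1.248 to 1.68) on the BCAA-free and control diets. At Mdh2, a region 16.15 kb downstream had BCAA-free TAC at 0.546 (0.432 to 0.692) of control diet TAC. This Mdh2 region was also called in control diet TAC alone.

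**Figure D5:**
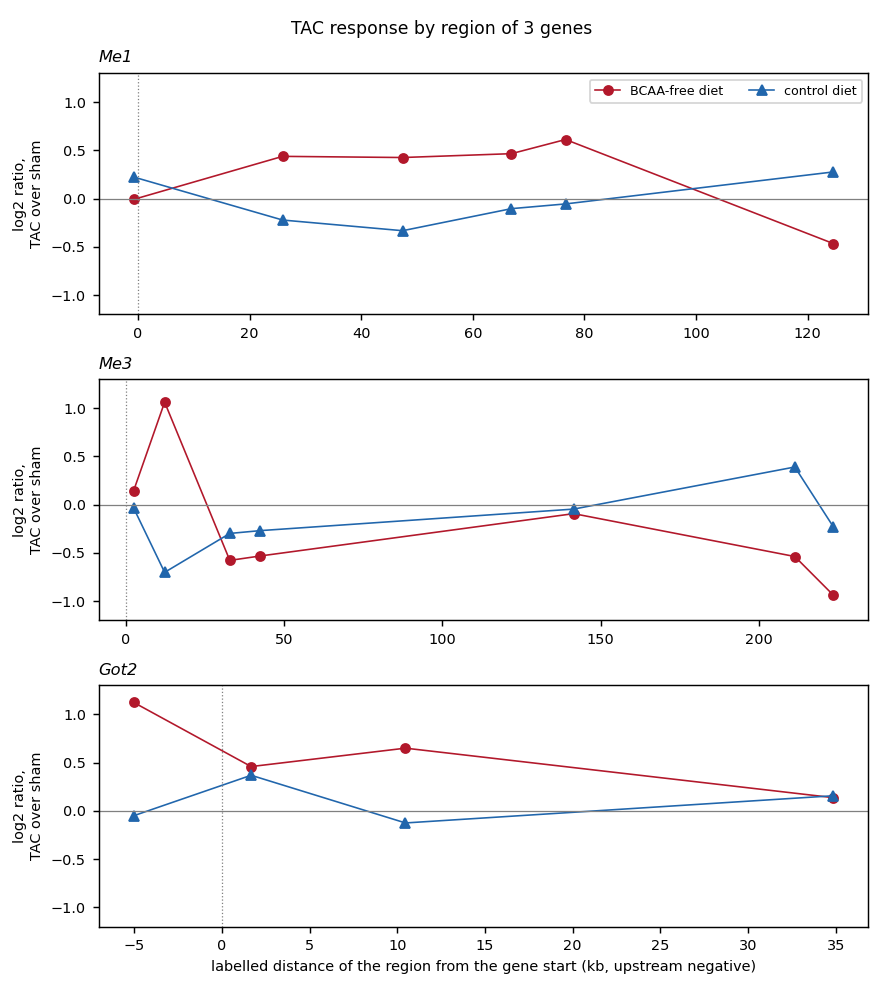
Log2 ratio of TAC to sham average signal at each region of Me1, Me3 and Got2 by its distance from the start in kb, with circles for the BCAA-free diet and triangles for the control diet. The 4 Me1 body regions are above 0 on the BCAA-free diet, and on the control diet they lie below 0 with counting intervals that hold equality, and the Me3 regions at 12.18 and 211.4 kb have opposite signs on the diets.

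The other pathway genes, 28 of 28 with a region, include the 4 succinate dehydrogenase subunits, the kinase gene Pdk4, and carriers, lactate dehydrogenases and lipoylation genes. Their median log2 TAC ratio was 0.03 on the BCAA-free diet, with 15 above 0 and 13 below. Over all genes it was -0.04, with 7631 above and 10518 below. On the control diet the median of these 28 genes was 0.33, with 26 above and 2 below. Over all genes it was 0.27, with 15987 above and 2165 below. In TAC hearts the diet ratio had a median of -0.32, with 8 above and 20 below (over all genes -0.31, 2345 above, 15812 below). At 1.5-fold, 1 was higher after TAC on the BCAA-free diet (Ogdhl, against 3.79% of all genes) and 1 on the control diet (Dld, against 5.86%). In TAC hearts 2 were lower on the BCAA-free diet than on the control diet (Pck2 and Lipt2, against 11.7%). These shares are near or below those of all genes. Ogdhl, a relative of Ogdh, had a signal of 12.1 in BCAA-free TAC, 7.28 in BCAA-free sham, 13.3 in control diet TAC and 9.87 in control diet sham. Dld, the dehydrogenase shared by these complexes, had a signal of 21.9 in BCAA-free TAC, 21.6 in BCAA-free sham, 27 in control diet TAC and 17.6 in control diet sham. Pck2, mitochondrial phosphoenolpyruvate carboxykinase, had a signal of 11 in BCAA-free TAC, 14.3 in BCAA-free sham, 17 in control diet TAC and 13.4 in control diet sham, and Lipt2, a lipoyl transferase, had a signal of 17.3 in BCAA-free TAC, 20.4 in BCAA-free sham, 26.2 in control diet TAC and 18 in control diet sham.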

How the data were processed

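ChIP-seq for H3K23Pr gave 4 libraries, each a pool of 3 hearts, and a pooled input library that has no column in the table and is not analysed here. Per the labels' protocols Active Motif did the chromatin work. The submitters' processing notes name BWA, MACS2 and mm10, with no version or role. Per the file headers the deposited table of merged regions gives each region, in each library, its average signal (coverage) and its peak signal, counts of promoters and CpG islands, the maximum tag number, gene lists and the authors' log2 ratios. How the signal was scaled between libraries is not given in the sources used here.

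Approximate tags were average signal times region length over 224, the divisor found in the deposited maximum tag number (largest deviation 8.53e-14). Ratios are plain ratios of average signal with no added constant, with exact 95% Clopper-Pearson intervals, and the difference of the TAC ratio between diets has a normal approximation on the log2 scale. Python 3.11.15, NumPy 2.4.6, pandas 2.3.3, SciPy 1.17.1 and matplotlib 3.10.9 were used. The code of the intervals was run on simulated counts that held counting error alone. That run cannot show how the intervals fare with variation between pools or with the scaling of libraries. The region rules were the highest mean signal and the nearest start, and counts past 1.5-fold, and past 25% higher or 20% lower, were read against all genes. In each comparison the 4 highest and 4 lowest genes and any gene 1.5-fold different are given with their values. RefSeq GRCm38.p6 supplied promoter sequences. The members and lists were chosen with earlier results of these data known.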

Additional observations from a re-analysis of the deposited data

Results flagged for a closer look

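At 5 regions the log2 TAC ratio went one way on the BCAA-free diet and the other way on the control diet, each with a counting interval that excludes equality. The difference is the BCAA-free ratio minus the control diet ratio. It was 1.76 at the Me3 region 12.18 kb from the start, -0.93 at the Me3 region at 211.4 kb, -0.79 at the Pcx region at 105.0 kb, -0.74 at the Me1 region at 124.6 kb and -0.70 at the Dlst region at 63.37 kb. These differences were not tested, since each group had 1 library. The share of all regions that meet this rule was not computed, so the 5 are not read as particular to these genes. Without the interval condition, 55.0% of all CpG-island promoter regions were lower on the BCAA-free diet and higher on the control diet. Of all regions with neither, 20.7% went that way and 17.8% the other way. The Me3 region at 12.18 kb was called only in the libraries where its signal was high. The regions at 105.0, 124.6 and 63.37 kb are also listed for other genes.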

How the results depend on the processing

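Each group had 1 library, so no library could be left out, and no p-value or SD exists. No paired analysis was possible because each group had 1 library. The scaling between libraries sets the zero of every ratio. The median TAC ratio on the BCAA-free diet (0.13) was -0.029 by peak signal, and the counts of genes 1.5-fold different (0 higher, 0 lower) became 1 higher when centred on all regions or on CpG-island promoter regions, 2 lower by peak signal, and 5 higher and 2 lower at a smaller step (25% higher or 20% lower). On the control diet the median (0.26) was 0.39 by peak signal, 0.089 centred on all regions and -0.029 centred on CpG-island promoters, and the count of higher genes (1) was 7 by peak, 13 at the smaller step and 0 at 2-fold. In TAC hearts the diet median (-0.10) was -0.39 by peak, 0.12 centred on all regions and 0.23 on CpG-island promoters. There the higher count (1) was 0 by peak, with a pseudocount of 1 or 5 and at 2-fold, and the lower count (1) was 8 by peak and at the smaller step, and 0 with a pseudocount of 1 or 5, under both centrings and at 2-fold. The difference of the TAC ratio (-0.11) was -0.38 by peak, 0.087 centred on all regions and 0.22 on CpG-island promoters. The cause was not tested. Of 128 values for single genes, 66 moved outside their counting interval by peak signal, with 27 changing sign, against 16 and 6 with the nearest region, 0 and 0 with a pseudocount of 1, 7 and 0 with a pseudocount of 5, and 49 and 22 centred on all regions. The centring on CpG-island promoters was chosen after seeing the data.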
